A study of Mus musculus with 64 samples.

Results

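The 34 genes described here code for the proteins that bring long-chain fatty acids into the heart muscle cell and break them down in its mitochondria. They were chosen by name and role, not by a measured value, though earlier results of these data were known. All 34 were found among the 39152 named genes of the count table. The adult heart takes most of its energy from fatty acids, which are freed from lipoproteins at the vessel wall, taken up, joined to coenzyme A, carried into mitochondria on carnitine and shortened by repeated rounds of dehydrogenation, hydration, dehydrogenation and thiolysis. Many of these genes are known targets of the nuclear receptors PPAR-alpha and ERR-alpha with their coactivator PGC-1-alpha, and a failing heart is known for lower expression of them.

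The 64 libraries came from 32 mice of strain C57BL6, each giving 1 library from its right ventricle (RV) and 1 from its left (LV). The 32 mice all carried 2 floxed copies of Pkp2, the gene of the desmosome protein plakophilin-2. In cKO mice (n = 4) a Cre recombinase switched on by tamoxifen and driven by the alpha-myosin heavy chain promoter deleted Pkp2 in cardiomyocytes, and these mice received HBSS as vehicle. AAV_3E13 (n = 8), AAV_1E14 (n = 5) and AAV_1E14_2.5wk (n = 6) mice had the same deletion and 1 retro-orbital dose of an AAV9 vector with mouse Pkp2. The dose was 3e+13 vector genomes per kg in AAV_3E13 and 1e+14 in the other two, given 1 week before tamoxifen by label in AAV_3E13 and AAV_1E14, and 2.5 weeks after it in AAV_1E14_2.5wk. For AAV_3E13 and AAV_1E14 the paper's figure legend gives 1 week before tamoxifen in the design but 1 week after it beside the sample sizes. WT mice (n = 9) were littermates with floxed alleles but no Cre, given HBSS. Hearts were taken 51 weeks after tamoxifen, except that cKO hearts were collected earlier, so loss of Pkp2 and time of collection cannot be told apart in any comparison with cKO.

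With M for 1e+06, libraries held 7.96 M to 14.6 M counts (median 11.5 M), and 5.34 M to 10.2 M remained once mitochondrially encoded genes were left out. CPM are counts per 1e+06 of the remaining counts after TMM scaling. Pkp2 itself had 37.9, 39.5, 59.8 and 98.6 CPM in cKO RV, against 125 to 187 CPM (median 152) in WT RV, and 494, 1186, 1232, 1772 and 1849 CPM in AAV_1E14 RV. The label of every group was borne out by this gene in both ventricles: Pkp2 was lower than WT in cKO and higher in each vector group by edgeR's test. Summed CPM of 5 atrial transcripts was 665 in the RV library of animal WT_HBSS_5819, the highest of the 9 WT RV libraries, and 1227 in the LV library of animal PKP2_m1e14_2.5wk_5810, the highest of all 64, and the RV and LV libraries of animal PKP2_m1e14_2.5wk_5814 may not come from 1 animal.

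Sequence upstream of these genes was read from the RefSeq promoter table (GRCm38.p6), which held 26 of the 34 genes. Each window ran from 250 bases before the start of the gene to 50 bases after it, and both strands were searched. The letters AGGTCA, the 6-base site that nuclear receptors of this class are known to bind, lay in the window of 6 of the 26 genes (23.1%), against 18.1% of the 27025 genes in the table, so the share among these genes was close to that of the table as a whole. The PPAR response element (AGGTCA repeated after 1 base of any kind) and the ERR element (TCA joined to AGGTCA), which both contain these letters, were in none of the 26 windows and in 0.0481% and 0.466% of all genes' windows. The windows of Acadm (chr3:153944594-153944893, minus strand), Acadvl (chr11:70015379-70015678, minus strand), Cd36 (chr5:17835847-17836146, minus strand), Echs1 (chr7:140116372-140116671, minus strand) and Ucp3 (chr7:100472741-100473040, plus strand) are shown because these 5 genes with the site fell in cKO in both ventricles, while Cpt1a, the other gene with it, did not pass the test. Of all 34 genes, 25 fell in cKO in both ventricles, and a link between the site and the fall was not tested. Capitals mark AGGTCA or its reverse complement.
Acadm: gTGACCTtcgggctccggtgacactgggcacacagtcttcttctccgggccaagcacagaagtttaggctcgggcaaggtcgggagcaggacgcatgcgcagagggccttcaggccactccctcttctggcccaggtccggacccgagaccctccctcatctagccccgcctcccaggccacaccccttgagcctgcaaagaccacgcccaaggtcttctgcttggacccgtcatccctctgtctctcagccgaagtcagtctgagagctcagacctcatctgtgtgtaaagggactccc
Acadvl: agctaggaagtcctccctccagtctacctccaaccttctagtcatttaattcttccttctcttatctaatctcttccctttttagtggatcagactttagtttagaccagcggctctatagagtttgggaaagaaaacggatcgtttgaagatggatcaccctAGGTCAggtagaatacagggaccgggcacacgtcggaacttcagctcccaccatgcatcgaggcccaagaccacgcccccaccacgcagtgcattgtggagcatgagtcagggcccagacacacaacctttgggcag
Cd36: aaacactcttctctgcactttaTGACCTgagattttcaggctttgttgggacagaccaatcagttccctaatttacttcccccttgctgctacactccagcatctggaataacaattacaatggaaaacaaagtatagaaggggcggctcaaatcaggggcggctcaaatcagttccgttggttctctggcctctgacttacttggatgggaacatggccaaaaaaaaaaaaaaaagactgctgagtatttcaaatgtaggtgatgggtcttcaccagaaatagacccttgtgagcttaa
Echs1: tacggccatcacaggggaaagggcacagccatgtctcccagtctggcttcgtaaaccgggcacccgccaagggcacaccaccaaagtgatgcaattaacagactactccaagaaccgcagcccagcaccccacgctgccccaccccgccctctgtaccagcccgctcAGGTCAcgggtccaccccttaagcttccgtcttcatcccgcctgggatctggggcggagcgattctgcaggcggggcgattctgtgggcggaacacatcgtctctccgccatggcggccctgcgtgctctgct
Ucp3: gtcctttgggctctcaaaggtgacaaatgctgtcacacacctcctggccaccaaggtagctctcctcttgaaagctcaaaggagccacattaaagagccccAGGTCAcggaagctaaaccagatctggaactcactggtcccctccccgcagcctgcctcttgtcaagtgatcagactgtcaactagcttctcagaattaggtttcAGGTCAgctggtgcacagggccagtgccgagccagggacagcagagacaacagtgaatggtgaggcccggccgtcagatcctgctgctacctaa
The site lay on the opposite strand far upstream in Acadm and Cd36, and on the gene's own strand nearer to the start in Acadvl, Echs1 and Ucp3, which held it at 2 places. A match is a run of letters in a window and was not tested as a binding site.

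Most of the 34 genes were lower in cKO than in WT hearts. In RV 25 of 34 fell and 1 rose (adjusted p below 0.05, edgeR quasi-likelihood test, Benjamini-Hochberg over all genes tested). There were 14150 genes tested, of which 22.0% were higher and 20.3% lower. In LV 28 fell and 2 rose, where 23.6% of all genes tested were higher and 23.0% lower. The median log2 fold change of the 34 genes was -1.51 in RV and -1.89 in LV, beside 0.02 and 0.05 over all genes tested, and 25 of the genes fell in both ventricles. A test on log2(TPM + 1) that allows the groups unequal variances called 7 genes in RV and 6 in LV, with 11.3% and 7.17% of all genes called, and every other alternative on cKO against WT called between 19 and 30. The heat map of log2 fold changes, which leaves out 3 genes often listed at 0, shows the 2 cKO columns blue in nearly every row.

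**Figure D1:**
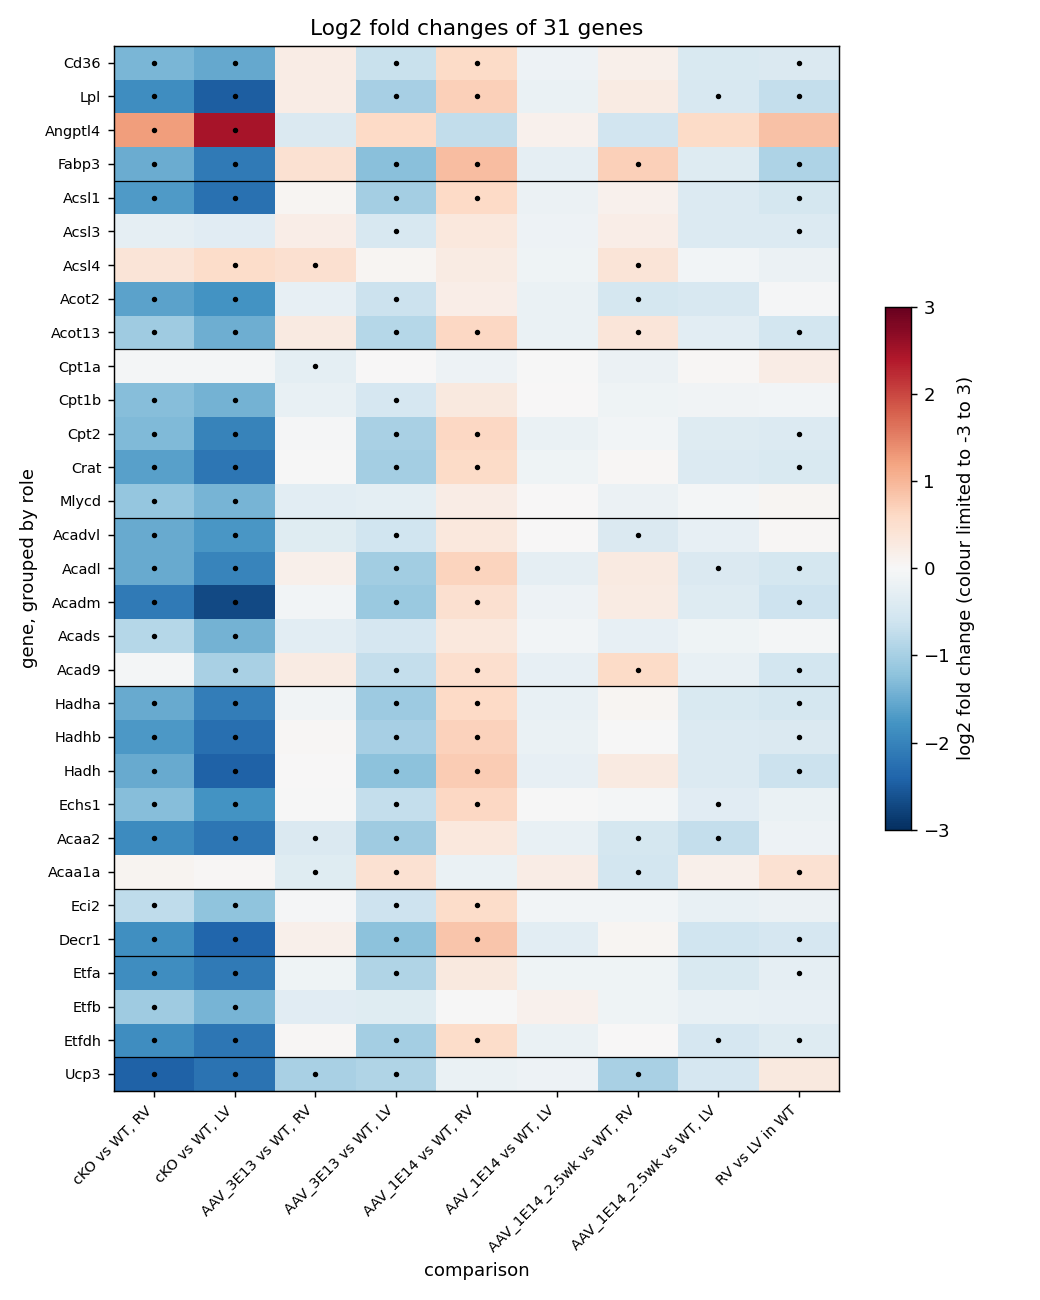
Log2 fold change of 31 of the genes (rows, grouped by role) in 9 comparisons (columns), with a dot where the adjusted p was below 0.05. Both cKO columns are blue in most rows with Angptl4 red, AAV_3E13 is blue in LV (24 genes lower), and AAV_1E14 is red in RV (17 genes higher).

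Uptake begins with Lpl, lipoprotein lipase, which frees fatty acids from circulating lipoproteins. Lpl had 891, 1209.5, 1471 and 1834 CPM in the 4 cKO RV libraries, against 3760.5 to 6428 CPM (median 4994) in WT RV (-1.86 on the log2 scale, SE 0.22, adjusted p = 1.24e-05). In LV it had 766, 1375, 1617 and 2282 CPM in cKO, against 6774 to 9950.5 CPM (median 8065) in WT (-2.47 on the log2 scale, SE 0.25, adjusted p = 4.72e-06). All cKO values of Lpl lay under all WT values of the same ventricle. This held for 21 of the 34 genes in RV and 25 in LV, against 12.4% and 15% of all genes tested. Most genes shown by library were picked for a small p in RV, so their lack of overlap there is no separate support. Cd36, the main fatty acid translocase of the cell surface, fell by 1.37 in RV and by 1.55 in LV on the log2 scale, and Fabp3, the heart's fatty acid binding protein, fell by 1.49 and 2.12.

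Angptl4, an inhibitor of lipoprotein lipase, moved the other way. It had 10.8, 11.3, 11.5 and 19.9 CPM in cKO RV, against 1.56 to 11.5 CPM (median 4.09) in WT RV (1.25 on the log2 scale, SE 0.47, adjusted p = 0.0435). In LV it had 7.87, 8.48, 20.5 and 33.2 CPM in cKO, against 0.774 to 6.68 CPM (median 2.89) in WT (2.47 on the log2 scale, SE 0.44, adjusted p = 0.000354). The groups overlapped in RV, where 3 WT libraries were near the cKO values. They did not overlap in LV, where 10.9% of all genes lay above WT without overlap. Its level was low throughout, so each CPM rests on few counts. The RV call was kept by DESeq2 (adjusted p = 0.0277), DESeq2 size factors and keeping mitochondrial genes, and was lost under the other alternatives, leaving out any of the 4 cKO animals among them (adjusted p between 0.0596 and 0.14). The LV call was lost with the unequal-variance test (adjusted p = 0.136) and kept under every other alternative.

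Fatty acids are activated by acyl-CoA synthetases, and thioesterases reverse that step. Acsl1, the main synthetase of heart muscle, fell by 1.70 in RV and by 2.23 in LV on the log2 scale. Acsl4, a synthetase that prefers arachidonic acid, had 48.9, 56.1, 97 and 103 CPM in cKO LV, against 40.9 to 68.7 CPM (median 52.2) in WT LV (0.55 on the log2 scale, SE 0.18, adjusted p = 0.0222), with 2 of the cKO libraries inside the WT range and 2 above it. The call in LV was lost with limma on log2(TPM + 1) and log2(TPM + 0.1) (adjusted p = 0.0593 and 0.0585) and with the unequal-variance test (adjusted p = 0.365). The call was also lost without animal PKP2_HBSS_2006 (adjusted p = 0.104) or PKP2_HBSS_3213 (adjusted p = 0.123). In RV it had 41.2, 57.3, 58.6 and 76.1 CPM in cKO, against 33.7 to 56.4 CPM (median 46.7) in WT, which missed the threshold (0.38 on the log2 scale, SE 0.15, adjusted p = 0.0509). The mitochondrial thioesterase Acot2 had 13.9, 20.5, 26.4 and 29.1 CPM in cKO RV, against 51.4 to 104 CPM (median 68) in WT RV (-1.61 on the log2 scale, SE 0.22, adjusted p = 4.78e-05). Acot2 lies at chr12:84034428-84040647 on GRCm39 beside its near-identical neighbour Acot1 at chr12:84056256-84065145, so reads may be shared between them.

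The carnitine shuttle carries acyl groups across the inner mitochondrial membrane. Crat, carnitine acetyltransferase, had 61.4, 83.6, 114 and 138 CPM in cKO RV, against 224 to 415 CPM (median 309) in WT RV (-1.62 on the log2 scale, SE 0.22, adjusted p = 4.82e-05). In LV the values were 57.1, 79.8, 122 and 122 CPM in cKO and 359 to 501 CPM (median 454) in WT (-2.17 on the log2 scale, SE 0.19, adjusted p = 1.8e-06), and the groups did not overlap in either ventricle. Cpt1b, the muscle form of the gatekeeper transferase, fell by 1.27 in RV and by 1.43 in LV on the log2 scale, Cpt2 fell by 1.32 and 1.99, and Mlycd, which removes the Cpt1 inhibitor malonyl-CoA, fell by 1.16 and 1.39. Cpt1a, the liver form, did not pass the test in either ventricle and had 78.5, 88.2, 98.5 and 98.9 CPM in cKO RV, against 82.5 to 125 CPM (median 96.4) in WT RV.

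Each round of beta-oxidation opens with an acyl-CoA dehydrogenase matched to the chain length. Acadm, the medium-chain enzyme, had 47.1, 91.8, 139.8 and 182 CPM in cKO RV, against 370.0 to 627 CPM (median 543) in WT RV (-2.13 on the log2 scale, SE 0.28, adjusted p = 3.06e-05). In LV it had 45.6, 108, 158 and 178 CPM in cKO, against 636 to 912 CPM (median 848) in WT (-2.71 on the log2 scale, SE 0.28, adjusted p = 5.3e-06). Animal PKP2_HBSS_2006 was the lowest of the cKO animals in both ventricles, and every cKO library was below every WT library. The very long-chain enzyme Acadvl fell by 1.51 in RV and by 1.74 in LV on the log2 scale, the long-chain enzyme Acadl fell by 1.51 and 1.98, and the short-chain enzyme Acads fell by 0.85 and 1.41. Acad9, also an assembly factor of respiratory complex I, fell by 0.97 in LV and did not pass the test in RV.

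The next steps are run by the trifunctional protein and by separate hydratase, dehydrogenase and thiolase enzymes. Hadhb, the thiolase subunit of the trifunctional protein, had 141, 219, 242 and 337 CPM in cKO RV, against 638 to 1044 CPM (median 789.8) in WT RV (-1.73 on the log2 scale, SE 0.22, adjusted p = 2.43e-05). In LV it had 97.1, 199.7, 289 and 313 CPM in cKO, against 833 to 1392 CPM (median 1071) in WT (-2.26 on the log2 scale, SE 0.26, adjusted p = 1.03e-05), again with no overlap. Its partner Hadha fell in both ventricles, by 2.06 in LV on the log2 scale, and the annotated genes of this pair overlap on opposite strands of chromosome 5. Hadh, Echs1 and Acaa2 fell in both ventricles as well, in RV by 1.51, 1.28 and 1.88, and in LV Hadh by 2.44 and Acaa2 by 2.17. Acaa1a, a thiolase of peroxisomes, not mitochondria, did not pass the test and had 21.4, 32, 39.3 and 41.6 CPM in cKO RV, against 29 to 37.2 CPM (median 32.7) in WT RV.

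Unsaturated chains need extra enzymes, and electrons leave through the electron transfer flavoprotein. Decr1, the dienoyl-CoA reductase, had 44.2, 48, 67 and 96.3 CPM in cKO RV, against 183 to 343 CPM (median 219) in WT RV (-1.85 on the log2 scale, SE 0.23, adjusted p = 2.17e-05). Etfdh, which passes the electrons on to ubiquinone, had 73, 101, 137 and 198 CPM in cKO RV, against 391 to 576 CPM (median 511) in WT RV (-1.87 on the log2 scale, SE 0.23, adjusted p = 1.55e-05). Both also fell in LV, Decr1 to 31.2, 42.6, 88.8 and 95.4 CPM and Etfdh to 73.2, 116, 176 and 194 CPM in cKO, against 258 to 453 CPM (median 333) and 497 to 781 CPM (median 636) in WT. No cKO library overlapped WT for either gene. The flavoprotein subunits Etfa and Etfb fell by 1.87 and 1.07 in RV and by 2.13 and 1.39 in LV on the log2 scale.

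Ucp3, a mitochondrial carrier expressed with fatty acid oxidation in muscle, had the deepest fall in RV among the genes that passed the test. It had 2.45, 3.07, 8.42 and 20.4 CPM in cKO RV, against 19.2 to 79.8 CPM (median 45.9) in WT RV (-2.43 on the log2 scale, SE 0.57, adjusted p = 0.0031). In LV it had 2.5, 4.18, 8.48 and 18.5 CPM in cKO, against 17.6 to 73.4 CPM (median 32.6) in WT (-2.22 on the log2 scale, SE 0.53, adjusted p = 0.0029). Animal PKP2_HBSS_2052 lay inside the WT range in both ventricles, while the other 3 cKO animals lay below it.

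**Figure D2:**
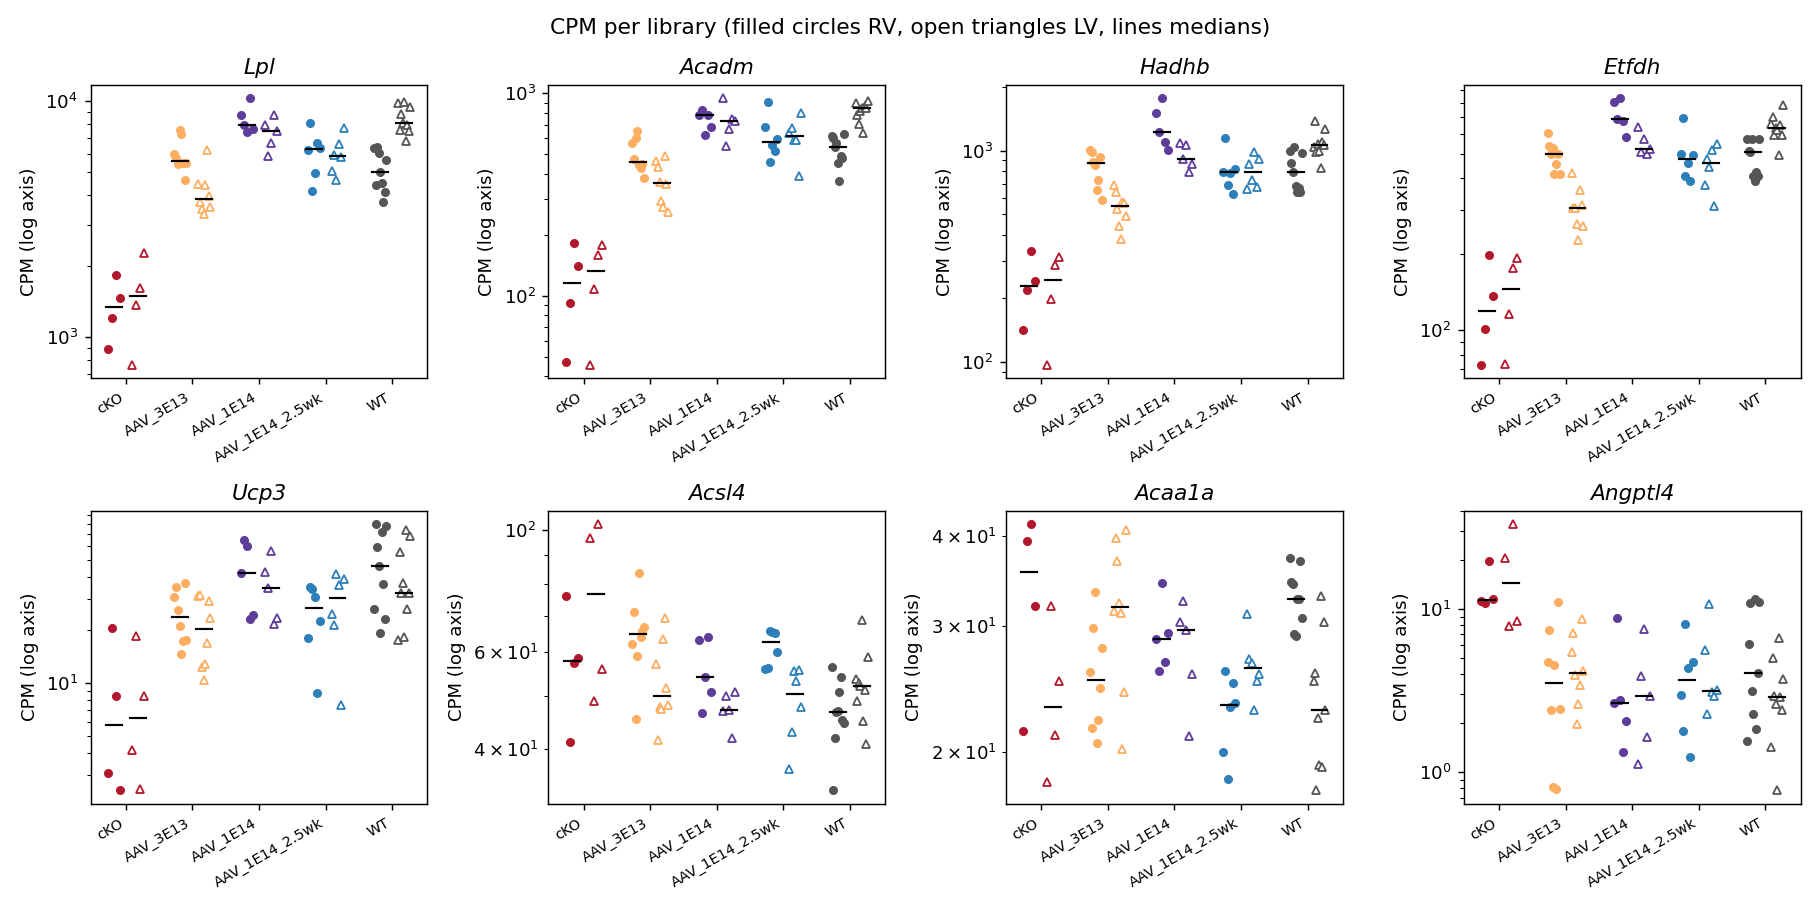
CPM (log axis) of 8 of the genes in every library by group, with filled circles for RV, open triangles for LV and lines at medians. Lpl, Acadm, Hadhb and Etfdh of cKO lie below every WT library of the same ventricle, as do 12.4% of all genes in RV and 15% in LV. The Angptl4 median is highest in cKO in each ventricle.

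Eci1, Slc27a1 and Acot1 were listed at 0 in 25, 29 and 21 of the 64 libraries, WT among them. Eci1, an enoyl-CoA isomerase, was listed at 0 in the 4 cKO LV libraries and in 3 of 9 WT LV libraries, where the others reached 71.2 TPM. Their fitted fold changes are therefore not given, and they are counted in the totals and medians only. Eci1 and Acot1 are among the 28 genes that fell in cKO LV, and against cKO Eci1 is among those that rose in AAV_1E14 LV and Slc27a1 among those that rose in AAV_1E14_2.5wk RV. The cause of the listed zeros was not tested.

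Cardiomyocyte markers moved in the same direction as most of these genes in cKO, and fibroblast and macrophage markers in the opposite direction. Of 12 cardiomyocyte markers 10 fell in cKO RV and 11 in cKO LV, with median log2 fold changes of -1.09 and -1.25, and 24 and 26 of the 34 genes were further below WT than that median. Only 8 genes in RV and 9 in LV had a fold change below that of the lowest marker, and 6 in each had one above the highest. The others lay inside the range of the markers. Of 10 fibroblast markers 8 rose in RV and 6 in LV, and the 9 macrophage markers tested all rose in both ventricles. Of 8 adipocyte markers 1 was tested and it was not called. Summed CPM of the cardiomyocyte markers was between 37572 and 98683 in cKO RV, against 108884 and 158571 in WT RV. Bulk RNA cannot tell fewer cardiomyocytes from less of these transcripts per cardiomyocyte. The summed TPM of the 34 genes divided by that of the 12 markers was 0.188 to 0.262 in cKO RV, against 0.250 to 0.345 in WT RV, and 0.180 to 0.279 in cKO LV, against 0.268 to 0.394 in WT LV. The ranges of this within-library ratio overlapped in both ventricles.

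**Figure D3:**
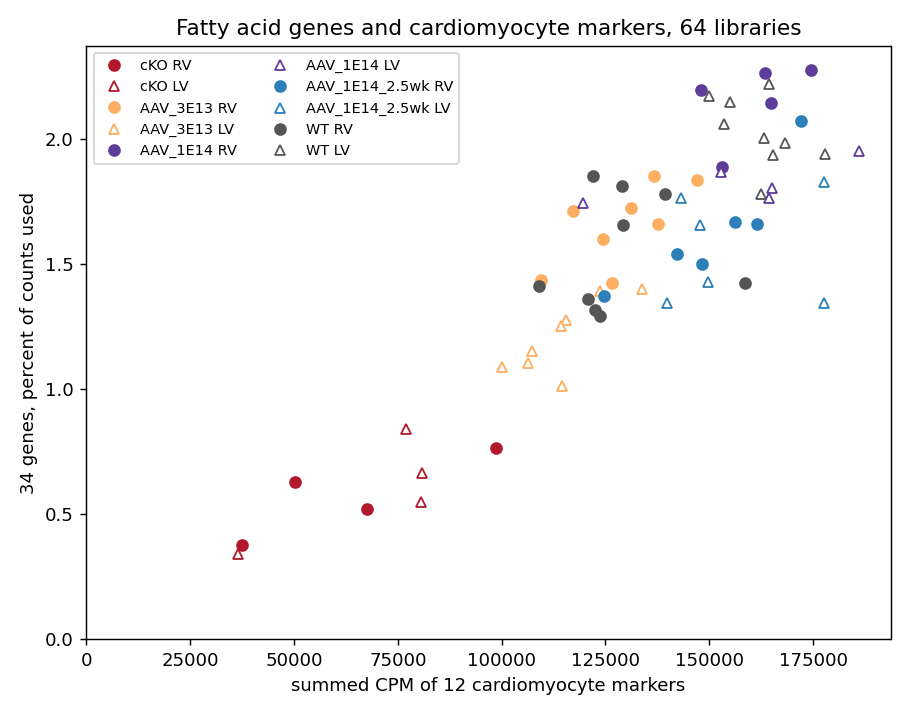
Share of the counts used that fell on the 34 genes (vertical axis, percent) against the summed CPM of 12 cardiomyocyte markers (horizontal axis) in each of 64 libraries, coloured by group, filled for RV and open for LV. The 8 cKO libraries sit lowest on both axes, with shares of 0.339% to 0.841%.

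Acsl1, Acsl3 and Acsl4 are isoenzymes of 1 step, as are Cpt1a and Cpt1b, and ratios of these isoforms within a library were compared over samples by a two-sided exact permutation test (24 tests, adjusted together). A ratio uses the same values of the same libraries as the 2 fold changes behind it, so it is not independent of those given above. In TPM, the ratio of Acsl4 to Acsl1 was 0.147 to 0.668 in cKO RV, against 0.0413 to 0.0844 in WT RV (log2 difference 2.19, exact permutation p = 0.0014, adjusted p = 0.0048), and 0.179 to 0.784 in cKO LV, against 0.041 to 0.0644 in WT LV (log2 difference 2.83, exact permutation p = 0.0014, adjusted p = 0.0048). The ratio of Cpt1a to Cpt1b was 0.166 to 0.705 in cKO RV, against 0.0918 to 0.188 in WT RV (log2 difference 1.37, exact permutation p = 0.0028, adjusted p = 0.0084), and 0.21 to 0.641 in cKO LV, against 0.088 to 0.144 in WT LV (log2 difference 1.41, exact permutation p = 0.0014, adjusted p = 0.0048). An exact p of 0.0014 is the smallest that 4 against 9 libraries allow. The ratio of Acsl3 to Acsl1 was also higher in cKO, by 1.70 in RV and by 1.94 in LV on the log2 scale (adjusted p = 0.0224 and 0.0048, exact permutation test), and in RV the adjusted p was 0.0605 to 0.0691 without animal PKP2_HBSS_2006, PKP2_HBSS_2052 or PKP2_HBSS_3217. In AAV_3E13 LV all 3 ratios were above WT: by 1.14 for Acsl4 over Acsl1, 0.89 for Acsl3 over Acsl1 and 0.45 for Cpt1a over Cpt1b on the log2 scale (adjusted p = 0.000986, 0.000988 and 0.00329, exact permutation test). In cKO RV, cKO LV and AAV_3E13 LV, where these ratios were higher, 10, 11 and 10 of 12 cardiomyocyte markers fell. All 9 macrophage markers tested rose in each of them. The part of these markers in the ratios was not tested. No ratio passed the threshold in AAV_3E13 RV or in AAV_1E14 and AAV_1E14_2.5wk, in either ventricle, with all animals. Without animal PKP2_m1e14_2.5wk_5814 the ratios of Acsl4 and Acsl3 to Acsl1 in AAV_1E14_2.5wk LV passed (adjusted p = 0.024 for each, exact permutation test), and without animal PKP2_m1e14_2043 the ratio of Cpt1a to Cpt1b in AAV_1E14 RV passed (adjusted p = 0.0437, exact permutation test).

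**Figure D4:**
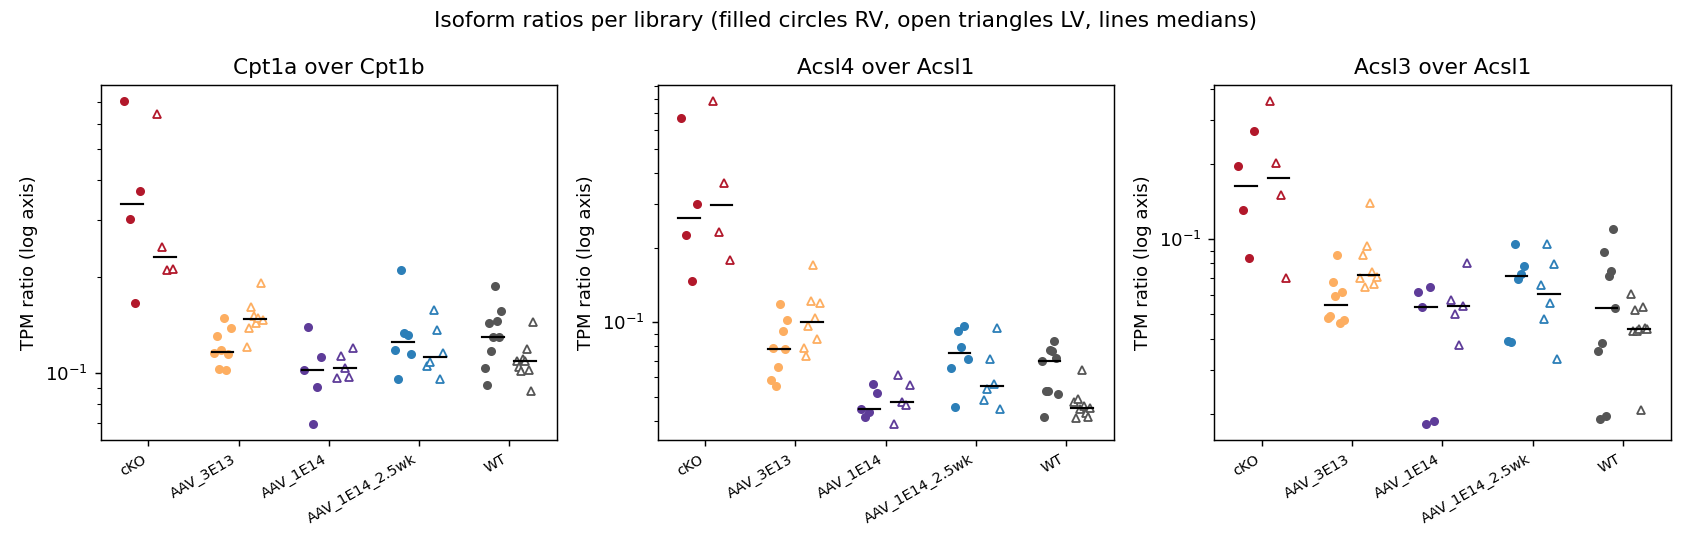
TPM ratio of 3 pairs of isoforms (log axis) in every library by group, filled circles for RV, open triangles for LV, lines at medians. The cKO medians lie highest in each panel, with Acsl4 over Acsl1 at 0.147 to 0.784 across both ventricles.

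Other genes of fatty acid metabolism were counted from a list of 48, of which 44 were tested in cKO against WT. In RV 25 fell and 5 rose, in LV 23 fell and 5 rose, and the median log2 fold changes were -0.83 and -0.77. The smallest p in RV belonged to Acss1, mitochondrial acetyl-CoA synthetase (-2.02), Ucp2 (1.68) and Vldlr, the very low density lipoprotein receptor (-1.91). Ucp2, an uncoupling protein also found in macrophages, had 149, 216, 251 and 291 CPM in cKO RV, against 45.2 to 94.3 CPM (median 74) in WT RV. The others that rose in RV were Fabp5 (1.40), the lipid droplet coat gene Plin2 (1.32), the synthetase Acsl5 (0.61) and the peroxisomal oxidase Acox3 (0.39). The part of the macrophage markers in these rises was not tested.

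At the lower vector dose the 2 ventricles differed. In AAV_3E13 RV, 1 gene of 34 rose (Acsl4, 0.47) and 4 fell (Cpt1a, Acaa2, Acaa1a and Ucp3) against WT, 5 in all, where 21.8% of all genes tested were called in either direction (1558 higher and 1326 lower). These RV counts were small under each alternative, between 0 and 7, where 5.31% to 24.9% of all genes were called. Acaa1a had the opposite sign on log2(TPM + 1). In AAV_3E13 LV, 24 fell and 1 rose (Acaa1a, 0.45), where 19.9% of all genes tested were higher and 19.2% lower, and the median log2 fold change was -0.80, beside 0.05 over all genes. Acaa1a and Acaa1b are near copies, so reads may be shared between them.

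Lpl in LV had 3333 to 6200.1 CPM (median 3862) in AAV_3E13, against 6774 to 9950.5 CPM (median 8065) in WT (-1.001 on the log2 scale, SE 0.12, adjusted p = 4.67e-06). Acadm in LV had 259.9 to 491 CPM (median 362) in AAV_3E13, against 636 to 912 CPM (median 848) in WT (-1.12 on the log2 scale, SE 0.12, adjusted p = 1.94e-06). Every AAV_3E13 library was below every WT library in LV for both genes. In RV the same genes overlapped WT: Lpl had 4654 to 7565 CPM (median 5602) in AAV_3E13 and 3760.5 to 6428 CPM (median 4994) in WT (0.22 on the log2 scale, SE 0.12, adjusted p = 0.218). Fabp3 (-1.25), Hadh (-1.24), Decr1 (-1.23), Hadha (-1.08) and Etfdh (-1.03) were among the other genes that fell in LV. In all, 18 of the 34 genes lay below WT without overlap in LV and none in RV, against 5.4% and 0.619% of all genes. Cardiomyocyte markers fell in LV as well (10 of 12, median -0.54), and of the 34 genes 24 were further below WT than that median. Only 7 had a fold change below that of the lowest marker, and 2 had one above the highest. The 9 endothelial markers that changed in LV were higher, and the 7 that changed in RV were lower. Fibroblast markers were higher in both (9 of 10 each, medians 0.79 in RV and 1.14 in LV), and macrophage markers were higher for 3 of 9 in RV and 9 of 9 in LV. The part of these markers in the result was not tested.

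The difference between ventricles was itself tested, as the RV difference from WT minus the LV difference. For AAV_3E13 it was positive for 21 genes and negative for 1 (Acaa1a, -0.79), where 18.8% of all genes tested were higher and 18.1% lower, with a median of 0.74 against -0.10 over all genes. The largest were Fabp3 (1.71), Decr1 (1.38), Hadh (1.26) and Lpl (1.23). For AAV_1E14 19 genes were positive and none negative, where 11.4% of all genes tested were higher and 8.61% lower, and for AAV_1E14_2.5wk 13 were positive and 1 negative, where 10.7% of all genes tested were higher and 7.72% lower. These contrasts share the WT libraries, in which RV and LV also differ. Relative effective length is a library's median over genes of log2 transcript length against the mean over libraries. In WT it was -0.075 to 0.017 in LV and 0.019 to 0.073 in RV, without overlap. Ventricle and this measure therefore cannot be told apart in WT. In WT, 17 of the 34 genes were lower in RV than in LV and 1 was higher (Acaa1a, 0.46), where 12.3% of all genes tested were higher and 15.4% lower. The median log2 fold change was -0.28, with Fabp3 (-0.92) and Lpl (-0.72) furthest down. Of the 12 cardiomyocyte markers 10 were also lower in WT RV than in WT LV. For cKO, no gene of the 34 was called in this contrast (0.0272% of all genes called), with 2 at an unadjusted p below 0.05 and 0 by DESeq2. Called or not, the estimate was positive for 29 of the 34 genes in cKO, with a median of 0.33 against -0.01 over all genes. It was positive for 28 in AAV_3E13, 28 in AAV_1E14 and 24 in AAV_1E14_2.5wk. With the animal as a block the count for cKO was 2, with 2.57% of all genes called.

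**Figure D5:**
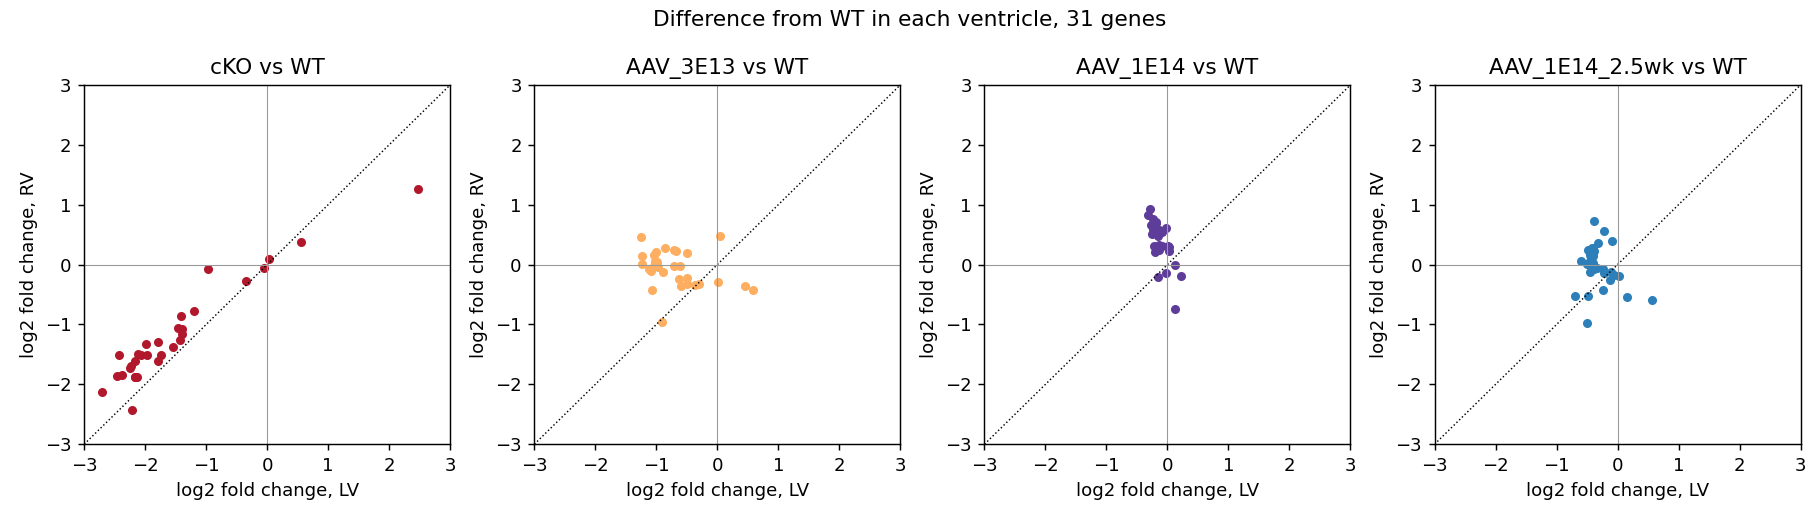
Log2 fold change against WT in RV (vertical axis) and LV (horizontal axis) for 31 genes, 1 panel per group, with a dotted line where the ventricles are equal. Most genes lie above the line in each panel, and all panels use the same WT libraries. Eci1, Slc27a1 and Acot1 are left out for their zeros.

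At the higher dose given early, many of the genes were above WT in RV. In AAV_1E14 RV, 17 of 34 genes rose and none fell, where 15.4% of all genes tested were higher and 14.1% lower. The median log2 fold change was 0.42, beside -0.06 over all genes. Decr1 had 319, 389, 393, 512 and 530.1 CPM in AAV_1E14 RV, against 183 to 343 CPM (median 219) in WT RV (0.83 on the log2 scale, SE 0.16, adjusted p = 0.00147). Lpl had 7406, 7650.4, 7967, 8737 and 10293 CPM in AAV_1E14 RV, against 3760.5 to 6428 CPM (median 4994) in WT RV (0.71 on the log2 scale, SE 0.13, adjusted p = 0.00142), with no overlap. Of the 34 genes 7 were above WT without overlap, against 6.51% of all genes. Of the cardiomyocyte markers 9 of 12 rose as well (median 0.37), and the 10 endothelial markers all fell. Of the 17 genes, 15 were also lower in WT RV than in WT LV, and both counts use the WT RV libraries. WT RV had the highest mean relative effective length of any group and ventricle (0.048, against 0.021 in AAV_1E14 RV). With that length as a covariate 22 genes rose, where 28.6% of all genes were called. WT RV also had the lowest mean total counts (9744030, against 11639800 in AAV_1E14 RV), and the part of depth was not tested.

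In AAV_1E14 LV none of the 34 genes was called, and neither were nearly all other genes (0.00750% called). At an unadjusted p below 0.05 there were 5, and DESeq2 and limma on log2(TPM + 1) called 0. Decr1 had 239, 242, 252, 306 and 310.3 CPM in AAV_1E14 LV, against 258 to 453 CPM (median 333) in WT LV (-0.32 on the log2 scale, SE 0.12, adjusted p = 0.928). The fitted changes of the 31 genes not often listed at 0 lay between -0.32 and 0.22.

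When the same dose came 2.5 weeks after tamoxifen, 27.3% of these genes differed from WT in RV, beside 36.3% of all genes. The difference between these shares was not tested, and the count of these genes was between 1 and 10 under the alternatives. The few called in LV were lower. In AAV_1E14_2.5wk RV, 33 genes were tested, 4 rose (Fabp3, Acsl4, Acad9 and Acot13) and 5 fell (Acadvl, Acaa2, Acaa1a, Acot2 and Ucp3), where 17.8% of all genes tested were higher and 18.5% lower. In LV 5 fell (Lpl, Acadl, Echs1, Acaa2 and Etfdh) and none rose, where 0.859% of all genes tested were higher and 0.633% lower. Ucp3 had 8.78 to 35.1 CPM (median 26.5) in AAV_1E14_2.5wk RV, against 19.2 to 79.8 CPM (median 45.9) in WT RV (-0.98 on the log2 scale, SE 0.35, adjusted p = 0.037). Lpl had 4643 to 7720.1 CPM (median 5851) in AAV_1E14_2.5wk LV, against 6774 to 9950.5 CPM (median 8065) in WT LV (-0.49 on the log2 scale, SE 0.12, adjusted p = 0.0463). The groups overlapped for both genes. In LV the count was 0 without animal PKP2_m1e14_2.5wk_5810, whose library had the high atrial sum (0.209% of all genes called, 20 of the 34 at an unadjusted p below 0.05), 13 without animal PKP2_m1e14_2.5wk_5814 (2.57%), 17 by DESeq2 (4.72%) and 0 with all groups in 1 fit (1.38%). In RV the count was 5 without animal PKP2_m1e14_2.5wk_5814 (30.6% of all genes called). It was 1 with each library's relative effective length as a covariate (5.87%), a measure in which this group and WT RV do not overlap. Of the markers in RV, 8 of 10 fibroblast and 3 of 9 macrophage markers were higher, the 10 endothelial markers were lower, and of 12 cardiomyocyte markers 5 were higher and 2 lower. In LV 3 fibroblast markers were higher and 1 cardiomyocyte marker lower. The part of these markers in the result was not tested.

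Each vector group was above cKO for most of the genes. Against cKO, 24 rose and 1 fell in AAV_3E13 RV, where 19.4% of all genes tested were higher and 22.7% lower. In AAV_3E13 LV 20 rose and 1 fell, where 8.58% of all genes tested were higher and 9.45% lower. In AAV_1E14 RV 27 rose and 1 fell, where 24.2% of all genes tested were higher and 26.4% lower. In AAV_1E14 LV 27 rose and 2 fell, where 17.3% of all genes tested were higher and 18.1% lower. In AAV_1E14_2.5wk RV 27 rose and 2 fell, where 22.6% of all genes tested were higher and 25.2% lower. In AAV_1E14_2.5wk LV 26 rose and 2 fell, where 17.4% of all genes tested were higher and 15.9% lower. Angptl4 fell in each of the 6 comparisons, Acsl4 in LV of AAV_1E14 and AAV_1E14_2.5wk, and Acaa1a in AAV_1E14_2.5wk RV. These comparisons share the 4 cKO mice. Cardiomyocyte markers rose with the genes, 4 of 12 in AAV_3E13 LV and 9 or 10 of 12 in the other 5 comparisons, while 6 of 10 fibroblast markers and 6 to 9 of 9 macrophage markers fell in each. The part of these markers in the result was not tested. The unequal-variance test called 8, 0, 2, 9 and 1 genes in AAV_3E13 RV, AAV_3E13 LV, AAV_1E14 LV, AAV_1E14_2.5wk RV and AAV_1E14_2.5wk LV, where between 0.437% and 11.6% of all genes were called. With relative effective length as a covariate AAV_1E14_2.5wk RV had 0, but so had nearly all genes (0.00719% called), and these groups do not overlap in that measure.

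Between vector groups, 17 genes were higher and none lower in AAV_1E14 than in AAV_3E13 in RV, with a median log2 fold change of 0.51, where 5.02% of all genes tested were higher and 4.95% lower. In that comparison limma on log2(TPM + 1) called 3, with 2.42% of all genes called. In LV 21 were higher and none lower (33 tested), with a median of 0.68, where 10.8% of all genes tested were higher and 8.26% lower. Fibroblast markers were lower at the higher dose (8 of 10 in RV and 9 of 10 in LV), as were 4 of 9 macrophage markers in LV, and cardiomyocyte markers were higher (4 of 12 in RV and 9 of 12 in LV). The part of these markers in the result was not tested. In AAV_1E14_2.5wk RV, 11 genes were lower and none higher than in AAV_1E14 RV, with a median of -0.44, where 4.97% of all genes tested were higher and 3.95% lower. The count was 3 without animal PKP2_m1e14_2034 or PKP2_m1e14_5726, 5 without PKP2_m1e14_2.5wk_5814, 3 by limma on log2(TPM + 1) (2.14% of all genes called), and 0 with the length covariate (0.00755%). Of 10 fibroblast markers 6 were higher in AAV_1E14_2.5wk RV, and of 12 cardiomyocyte markers 3 were lower. In LV no gene of the 34 was called between them, nor any of the other genes (0% called), with 5 of the 34 at an unadjusted p below 0.05 and 1 by DESeq2.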

How the data were processed

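The members and gene lists were chosen with earlier results of these data known. Reads had been trimmed (fastp) and assigned to GRCm39 transcripts by the authors in Salmon 1.8.0, and tximport gave sums per gene. The count table deposited by the authors holds estimated counts, not normalized, which were rounded here. The deposited TPM table holds TPM from the same runs, and the deposited length table holds effective transcript lengths in bases. Labels name polyadenylated RNA and also a ribosomal depletion kit, so the selection is uncertain. Groups, ventricles and animals came from the labels, and replicates were separate animals.

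The 37 mitochondrially encoded genes and 1 row without a name (at most 0.00136% of a library) were left out. Each ventricle was tested alone with edgeR 4.0.16 in R 4.3.3 (TMM, filterByExpr, quasi-likelihood F test) on the libraries of the 2 groups compared, and p-values were adjusted by Benjamini-Hochberg over all genes tested, at 0.05. The fit was tested beforehand on counts simulated with the same dispersion for all genes and groups, so the wide spread of cKO libraries was not simulated. False calls were 3.21% (cKO against WT in RV) to 8.54% (AAV_1E14 against WT in RV) of the calls. Differences between ventricles of a difference from WT were tested as an interaction. Isoform ratios were tested by exact permutation of libraries. Alternatives were DESeq2 1.42.0, limma 3.58.1 on log2(TPM + 1) and log2(TPM + 0.1), an unequal-variance test, other scaling, filters and length terms, all groups in 1 fit, and leaving out animals. Relative effective length as a covariate and leaving out the LV library of animal PKP2_m1e14_2.5wk_5810 were added after the data were seen. The animal number pairs RV with LV by label: the correlation of an animal's 2 deviations from group means had a median of 0.154 (-0.046 to 0.628, above 0.1 in 22 of 32 animals), against -0.026 between animals.

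Values by library are given for the gene of each role with the smallest p in cKO against WT in RV, for genes with the sign opposite to most, and for the isoform pairs. From the other fatty acid genes, the 3 with the smallest p and those that rose are named.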

Additional observations from a re-analysis of the deposited data

Results flagged for a closer look

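Of 110 combinations of gene and group checked for a library far from the others, 7 had one, and chance alone gives about 1 in 20. In AAV_1E14_2.5wk RV, animal PKP2_m1e14_2.5wk_5801 was the highest library for 4 genes, with 77.7 CPM of Acot2, 1148 CPM of Hadhb, 391 CPM of Decr1 and 694 CPM of Etfdh. In AAV_3E13 LV, animal PKP2_m3e13_5759 had 6200.1 CPM of Lpl. Angptl4 reached 19.9 CPM in animal PKP2_HBSS_3213 of cKO RV and 8.78 CPM in animal PKP2_m1e14_2043 of AAV_1E14 RV.

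The difference from WT differed between RV and LV by the interaction test. In AAV_3E13 it did so for 22 of the 34 genes, among them Decr1 (1.38, RV minus LV on the log2 scale), Lpl (1.23), Etfdh (1.07), Acadm (1.05), Hadhb (1.03), Crat (1.02), Acsl4 (0.44) and Acaa1a (-0.79). In AAV_1E14 it did so for 19, among them Decr1 (1.15), Lpl (0.90), Hadhb (0.89), Etfdh (0.76), Crat (0.71) and Acadm (0.64). In AAV_1E14_2.5wk it did so for 14, among them Lpl (0.76), Decr1 (0.68), Acadm (0.65), Etfdh (0.54), Acsl4 (0.51) and Acaa1a (-0.68), with Decr1 and Etfdh no longer past the threshold without the LV library of animal PKP2_m1e14_2.5wk_5810.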

How the results depend on the processing

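Of 336 recomputed counts of called genes, 287 stayed within 1.5 times the reported count. The share of all genes called moved further than that in 117 of 336 recomputed shares. A count alone is therefore not a result about these genes. With the unequal-variance test the counts were 7 and 6 for cKO against WT in RV and LV (11.3% and 7.17% of all genes called). They were 2 for AAV_3E13 against WT in RV (10.7%), and 8 and 0 for AAV_3E13 against cKO in RV and LV (11.6% and 0.437%). Against cKO they were 2 for AAV_1E14 in LV (0.656%), and 9 and 1 for AAV_1E14_2.5wk in RV and LV (9.29% and 1.07%). The count was 4 for AAV_1E14 against AAV_3E13 in RV (1.57%) and 0 for AAV_1E14_2.5wk against AAV_1E14 in RV. For AAV_1E14_2.5wk against WT it was 0 in LV (0% of all genes), and 5 for the interaction of ventricle and group. limma on log2(TPM + 1) and on log2(TPM + 0.1) gave 3 and 3 for AAV_3E13 against WT in RV (12.6% and 12.3% of all genes called). They gave 0 and 0 for AAV_1E14_2.5wk against WT in LV (0.115% and 0.140%), and 3 and 4 for AAV_1E14 against AAV_3E13 in RV (2.42% and 2.72%). For AAV_1E14_2.5wk against AAV_1E14 in RV they gave 3 and 3, and for the AAV_1E14_2.5wk interaction 7 and 6. All groups in 1 fit gave 3 for AAV_3E13 against WT in RV (20.0% of all genes called), and 5 and 0 for AAV_1E14_2.5wk against WT in RV and LV (31.5% and 1.38%). That fit gave 7 for AAV_1E14_2.5wk against AAV_1E14 in RV (5.78%) and 8 for the AAV_1E14_2.5wk interaction. Effective length offsets gave 3 for AAV_3E13 against WT in RV (15.5% of all genes called). For AAV_1E14_2.5wk against WT they gave 4 and 10 in RV and LV (32.4% and 1.88%). DESeq2 gave 17 for AAV_1E14_2.5wk against WT in LV (4.72% of all genes called). Against AAV_1E14 it gave 20 for AAV_1E14_2.5wk in RV (13.6%) and 1 in LV. For AAV_1E14_2.5wk against WT in LV no filter gave 2 (0.633% of all genes called) and keeping mitochondrial genes 3 (1.42%). Relative effective length as a covariate gave 0 for AAV_3E13 against WT in RV (5.31% of all genes called). For AAV_1E14_2.5wk against WT it gave 1 and 1 in RV and LV (5.87% and 0.512%), and against cKO 0 in RV (0.00719%). It gave 0 for AAV_1E14_2.5wk against AAV_1E14 in RV, 1 for the cKO interaction and 2 for the AAV_1E14_2.5wk interaction.

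With the animal as a replicate block the cKO interaction had 2 genes called in place of 0, the AAV_3E13 interaction 25, the AAV_1E14 interaction 20, the AAV_1E14_2.5wk interaction 18 and RV against LV in WT 20. For AAV_1E14_2.5wk against WT in RV, the count was 5 without animal PKP2_m1e14_2.5wk_5814 and 9 without the RV library of animal WT_HBSS_5819 (30.6% and 34.5% of all genes called). In LV it was 13 without animal PKP2_m1e14_2.5wk_5814 and 0 without the LV library of animal PKP2_m1e14_2.5wk_5810 (2.57% and 0.209%). No other library of AAV_1E14_2.5wk was left out, those of animal PKP2_m1e14_2.5wk_5801 included. For AAV_1E14_2.5wk against AAV_1E14 in RV, leaving out animal PKP2_m1e14_2.5wk_5814 or 1 animal of AAV_1E14 gave 3 to 13. Acaa1a in AAV_3E13 RV had 0.0212 with limma on log2(TPM + 1) and with the unequal-variance test and 0.0214 with limma on log2(TPM + 0.1), and Acsl3 in AAV_3E13 LV had 0.0017 with limma on log2(TPM + 0.1). With the length covariate Acadvl (0.39) and Acaa2 (0.10) turned positive in AAV_1E14_2.5wk RV against WT, and Acadvl (-0.0457), Acads (-0.43), Etfb (-0.45) and Mlycd (-0.17) turned negative in AAV_1E14_2.5wk RV against cKO. The cause was not tested. Isoform ratios moved only when an animal was left out: Acsl3 over Acsl1 in cKO RV gave 1.43 to 1.99, Cpt1a over Cpt1b in AAV_1E14 RV -0.51 to -0.26, Cpt1a over Cpt1b in AAV_1E14_2.5wk RV -0.018 to 0.020, and in AAV_1E14_2.5wk LV Acsl4 over Acsl1 0.22 to 0.44 and Acsl3 over Acsl1 0.37 to 0.62. Of 5951 recomputed fold changes of single genes, 5236 kept direction and call.

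The 4 cKO mice and their earlier collection limit every comparison with that group. Angptl4 and Acot1 had few counts, which limits their precision.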
